A study of Mus musculus with 8 samples.

Results

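Cd274 and Cd86 encode ligands of the B7 family, and both are in the authors' deposited list of probe sets that differed on these arrays. They were found by their exact gene symbols in that list and are represented by 1 probe set each, 1419714_at for Cd274 and 1449858_at for Cd86, that is 2 of the 409 listed and of the 45101 on the array. RNA was measured on 8 Affymetrix Mouse430_2 arrays after a mixed lymphocyte reaction, in which cells of one mouse strain are cultured with those of another and respond to their foreign antigens. Each well held 200000 splenocytes of C57BL/6 mice, stained with the dye CFSE, as responders and 800000 of FVB/N mice, given 30 Gy beforehand, as stimulators. After 5 days, CFSE-positive CD4 or CD8 cells were sorted. The 4 groups, with 2 arrays in each, were CD4 cells and CD8 cells of cultures with nothing added, and CD4 cells and CD8 cells of cultures that received a costimulation blockade made of anti-LFA-1, anti-CD40L and CTLA4-Ig, 50 µg of each. The 3 agents were never given apart, so no difference can be assigned to any one of them. The labels give 4 mice per group and do not tell whether its 2 arrays stand for separate cultures, so p-values reflect the scatter among these arrays alone, and part of that scatter may be technical.

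B7 family ligands sit on the surface of antigen-presenting cells and of other cells and set the outcome of T cell recognition. Cd86 protein binds CD28, which costimulates the T cell, and CTLA-4, which inhibits it; CTLA4-Ig, the soluble fusion protein in the treatment, binds Cd86 and the related Cd80 and keeps them from CD28. Cd274 protein, also called PD-L1, binds PD-1 and inhibits T cells. Transcription of Cd274 is known to be induced by interferon-gamma through transcription factors that include IRF1. Activated T cells can carry both ligands themselves.

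Each value is a log2 value relative to the gene's own median over the 8 arrays. Such values show by how much arrays differ, but not how strongly a gene was expressed, and the levels of the 2 genes cannot be set against each other. No source used here names the log base; log2 was read from the layout of the authors' list, and another base would scale every difference by the same factor. None of 14 T cell markers looked for was among the 289 genes that could be named, all of them through the list, so neither the identity of the sorted subsets nor their purity could be checked by name. The hybridization spike-in controls had a median of 0.92 on the array of CD8 blockade replicate 1 and of -0.23 on that of CD4 untreated replicate 2, against -0.08 to 0.13 on the other 6 arrays. The poly-A spike-in controls had medians of 0.79 and -0.44 on the same arrays, in that order. On the other 6 they ran from -0.34 (CD8 blockade replicate 2) to 0.23 (CD8 untreated replicate 1), so they set CD4 untreated replicate 2 apart less clearly.

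The stretch before a start site of Cd274 is printed because that gene had the larger change of the pair and because the genes closest to it in pattern, described further on, include known interferon targets. The 250 bases are those directly before the start site that the RefSeq table of promoters uses, GRCm38.p6 chr19:29367188-29367437, forward strand. The gene's record in RefSeq begins farther upstream, at position 29362107, so the window lies inside the annotated span of Cd274 and belongs to the 1 start for which the table holds a window. Capitals mark the 2 matches found among 6 motifs that were searched on both strands.
Cd274 promoter: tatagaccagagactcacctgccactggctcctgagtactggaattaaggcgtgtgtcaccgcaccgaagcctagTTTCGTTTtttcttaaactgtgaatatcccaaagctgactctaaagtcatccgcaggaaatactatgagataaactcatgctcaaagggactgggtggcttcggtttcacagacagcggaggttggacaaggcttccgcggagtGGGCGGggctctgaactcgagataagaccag
The first match is to the core that IRF transcription factors bind, AANNGAAA, here on the reverse strand with its leftmost base at position -175 from the start site, and 21.3% of the 32851 windows of this length in the table hold one on either strand. The second is a GC box, GGGCGG, at position -31, which 32.7% of windows hold. The longer core of the interferon-stimulated response element, GAAA repeated after a gap of 2 bases, had no match (3.0% of windows), and the shorter IRF core was added after that was seen. No match was found to the interferon-gamma activated site TTCNNNGAA, which 7.0% of windows hold, to the NF-kB motif (7.3%) or to the TATA box TATAAA (12.4%). The 2 matches did not overlap, a match is no proof of binding, and the absence of one says only that these letters are not in this window.

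Cd274 values were high on every untreated array and low on every blockade array, in both subsets. In untreated CD4 cells Cd274 stood at 1.40 and 1.31, and in untreated CD8 cells at 1.32 and 1.29. With the blockade it stood at -1.45 and -1.67 in CD4 cells and at -1.36 and -1.29 in CD8 cells. The lowest untreated array lay 2.59 above the highest blockade array, while the 4 untreated arrays spanned only 0.11 and the 4 blockade arrays 0.38.

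**Figure D1:**
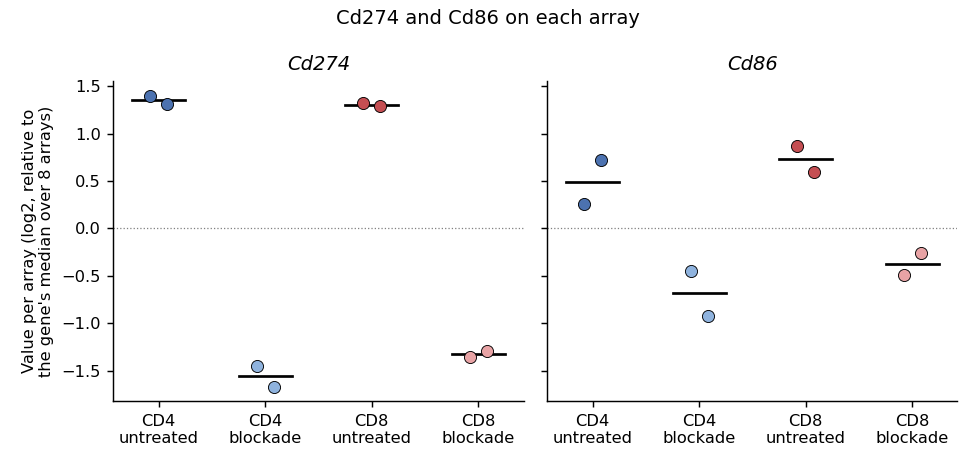
Values of Cd274 (left) and Cd86 (right) on each of the 8 arrays, in log2 relative to the gene's own 8-array median; points are arrays and black bars are means of the 2 arrays of a group. The 4 untreated arrays lie above the 4 blockade arrays for both genes, by 2.59 for Cd274 and by 0.51 for Cd86.

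Cd86 values were ordered by treatment in the same way, with a smaller distance and a wider spread. In untreated CD4 cells Cd86 stood at 0.26 and 0.72, and in untreated CD8 cells at 0.87 and 0.59. With the blockade it stood at -0.45 and -0.92 in CD4 cells and at -0.49 and -0.26 in CD8 cells. The lowest untreated array lay 0.51 above the highest blockade array, less than the 0.61 spanned by the untreated arrays or the 0.66 spanned by the blockade arrays. That the arrays nearest to 0 lie equally far above and below it, for each gene, follows from the centring on the median of 8 values.

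The list from which the genes were taken was made on these arrays by an unpaired comparison with a corrected p limit of 0.05, per the file headers. The header leaves the pair of conditions blank; since all of its probe sets differ at least 2-fold between the 4 blockade and the 4 untreated arrays, that contrast was taken as the one behind the list. Differences between blockade and untreated arrays are therefore given for Cd274 and Cd86 as a description, with no test. Cd274 differed by -2.91 ± 0.11 in CD4 cells (log2, ± SE, n = 2 and 2 arrays), a level 7.54-fold lower under blockade. In CD8 cells the difference of Cd274 was -2.63 ± 0.11, or 6.21-fold lower. For Cd86 the differences were -1.17 ± 0.20 in CD4 cells and -1.11 ± 0.20 in CD8 cells, or 2.26-fold and 2.15-fold lower. Of all 44951 features, 2.02% passed the limma threshold with a lower value under blockade in CD4 cells and 1.14% in CD8 cells, and in 5.86% all 4 blockade arrays lay below all 4 untreated arrays; nothing is read from these shares for 2 genes from a list that appears to have been selected on this difference. Of the 289 named genes, 95.2% passed in either direction in CD4 cells and 85.5% in CD8 cells. By direction, 198 passed downward and 77 upward in CD4 cells, and 172 downward and 75 upward in CD8 cells. Every count of named genes under blockade given further on stands against these numbers.

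Within the list, Cd274 was far from the limit of selection and Cd86 close to it. By the mean difference of 4 blockade and 4 untreated arrays, Cd274 (-2.77) held place 46 among the 280 listed probe sets with lower values under blockade, and Cd86 (-1.14) held place 242. The smallest such difference inside the list was -1.01, and the nearest probe set on the other side of the 2-fold limit, outside the list, was at -0.997; another 159 probe sets with a difference of at least 2-fold were not listed. Leaving out any 1 array moved the difference of Cd86 between -1.41 and -0.94 in CD4 cells and between -1.24 and -0.97 in CD8 cells, so without some single arrays Cd86 differed by less than 2-fold.

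The spread between replicates set the genes apart as well. The residual SD over the 4 groups was 0.088 for Cd274 and 0.266 for Cd86, against a median of 0.123 over all 44951 features. That of Cd274 lay at percentile 27.4 of all features and that of Cd86 at percentile 95.1. The replicates of Cd86 were farthest apart in the 2 CD4 groups, by 0.47 without treatment and by 0.46 with the blockade. A difference between subsets had therefore to be larger for Cd86 than for Cd274 to be seen.

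Whether CD8 cells differed from CD4 cells is a question that the choice of the genes did not use, and it was tested. Selection by a test over both subsets together favours a small spread between them, so a missing subset difference is no evidence of equal levels; still, 11.1% of the 289 named genes passed without treatment and 4.8% under blockade. Without treatment, the order of the Cd274 group means was CD4 (1.35 ± 0.06, SD, n = 2) above CD8 (1.31 ± 0.02), and the values overlapped. The difference of Cd274, CD8 minus CD4, was -0.05 with a 95% interval from -0.29 to 0.20 (limma adjusted p = 0.94). That interval corresponds to CD8 levels between 0.82 and 1.15 times those of CD4 cells. Cd86 had the opposite order, with 0.73 ± 0.20 in CD8 cells and 0.49 ± 0.33 in CD4 cells, and here too the arrays overlapped. Its difference was 0.24, with an interval from -0.22 to 0.70 (limma adjusted p = 0.77). Neither gene passed, where 2.50% of all features did, and neither had an unadjusted p under 0.05 (0.678 and 0.265).

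Under blockade, both genes had the higher mean in CD8 cells, without passing the test. Cd274 stood at -1.33 ± 0.05 in CD8 cells and at -1.56 ± 0.16 in CD4 cells (SD, n = 2), with both CD8 arrays above both CD4 arrays. The difference of 0.23 had a 95% interval from -0.01 to 0.48 and a limma adjusted p of 0.44 (unadjusted 0.0571). Such an order, with both CD8 arrays higher, was found in 20.6% of all features. Cd86 stood at -0.37 ± 0.17 in CD8 cells and at -0.68 ± 0.33 in CD4 cells, and the arrays overlapped. Its difference was 0.31, with an interval from -0.15 to 0.77 (limma adjusted p = 0.62, unadjusted 0.161). Of all features, 2.20% passed this comparison. For both genes the order of the 4 group means thus had the untreated groups first and the blockade groups last, and within either treatment the subsets did not differ past the threshold.

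**Figure D2:**
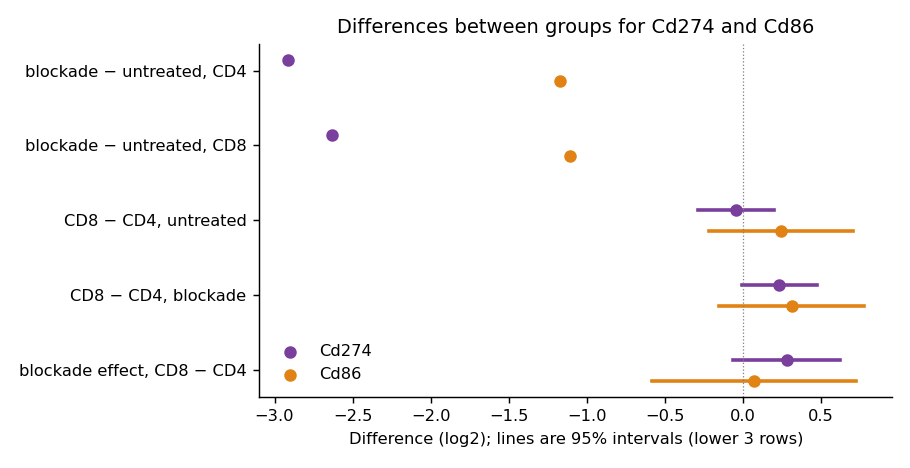
Differences between groups for Cd274 and Cd86, in log2, from the fit of all 8 arrays; points are estimates and, for the 3 comparisons that were not used to choose the genes, lines are 95% intervals. The blockade differences lie at -2.91 and -2.63 for Cd274 and at -1.17 and -1.11 for Cd86, and all 6 intervals of the other comparisons include 0.

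The size of the blockade difference was then compared between the subsets. For Cd274 the blockade difference in CD8 cells minus that in CD4 cells was 0.28, with a 95% interval from -0.06 to 0.62 (limma adjusted p = 0.98, unadjusted 0.0978). For Cd86 it was 0.07, with an interval from -0.58 to 0.72 (limma adjusted p = 1, unadjusted 0.816). In all, 0.0578% of the features passed, so few calls were made anywhere on the array. For Cd86 the interval allows a fold change in CD8 cells between 0.67 and 1.65 times that in CD4 cells, and for Cd274 between 0.96 and 1.54 times, so equal responses are not shown.

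The partners of the 2 ligands could not be followed. Of 14 B7 ligands and CD28-family receptors looked for, among them Cd80, Pdcd1lg2, Cd28, Ctla4, Icos and Pdcd1, only Cd274 and Cd86 were named in the list. Of 10 genes for the targets of the 3 blocking agents and their partners, only Cd86 was. None of 12 NF-kB and CD40 target genes was named. Probe sets of the others can be among the features tested without a name, so nothing follows about whether they changed.

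Genes of the interferon pathway upstream of Cd274 were named in part, and those named had lower values under blockade, as Cd274 had. Of 12 genes looked for, 4 were named, and all 4 passed the limma threshold downward in both subsets. In CD4 and CD8 cells, 95.2% and 85.5% of the named genes passed in either direction, and 198 and 172 of 289 downward. Of all features, 2.02% and 1.14% passed downward. As the list was taken to be selected on this difference, the count of 4 is no independent evidence. Values are given for 3 of them. Irf1, an interferon-induced transcription factor known to act on the Cd274 promoter, differed by -1.79 ± 0.12 in CD4 cells and by -1.20 ± 0.12 in CD8 cells. Irf9, a DNA-binding subunit of the factor that type I interferon activates, differed by -1.96 ± 0.10 and -1.95 ± 0.10. Socs1, an inhibitor of JAK kinases that interferon induces, differed by -2.69 ± 0.14 and -1.58 ± 0.14. Socs1 was the only one of the 4 with a subset difference past the threshold, and under blockade it was higher in CD8 than in CD4 cells by 1.27 ± 0.14 (limma adjusted p = 0.0016).

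Interferon-inducible genes formed the larger group around Cd274. Of 31 looked for, 21 were named. These leave out Gbp6, which belongs to the same list but was lost from it when symbols were updated. Gbp6 differed by -4.02 in CD4 cells and by -3.28 in CD8 cells and is not in the counts and medians given here. In CD4 cells 20 passed downward and 1 upward, with a median difference of -2.77. In CD8 cells 19 passed downward, 1 upward and 1 did not pass, with a median of -2.15; over all 289 named genes the medians were -1.41 and -1.22. The 289 include 77 genes that passed upward in CD4 cells and 75 in CD8 cells, so these medians are not compared like for like. Counted in either direction, the numbers that passed are near the shares of all named genes (95.2% and 85.5%). Downward, 198 of the 289 named genes passed in CD4 cells and 172 in CD8 cells (of all features 2.02% and 1.14%). Cd274 lay below the median of the group in both subsets, by little in CD4 cells (-2.91) and by more in CD8 cells (-2.63). Cd86, at -1.17, was nearer to 0 in CD4 cells than each of the 20 that fell there. In CD8 cells, at -1.11, it was not, since Cxcl10 (-0.65), Oas1a (-0.91), Tap1 (-0.92) and Psmb9 (-1.02) lay nearer to 0. The member that rose was Ciita, the transactivator of MHC class II genes, with 1.34 ± 0.12 and 1.21 ± 0.12. The largest fall was that of Iigp1, an interferon-inducible GTPase, with -5.16 ± 0.11 and -5.11 ± 0.11.

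**Figure D3:**
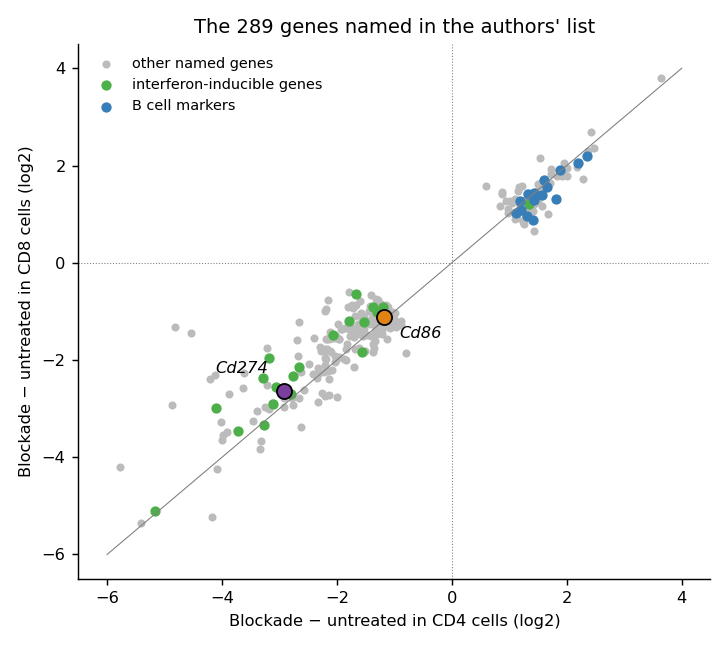
Blockade minus untreated in CD4 cells (x axis) and in CD8 cells (y axis), in log2, for the 289 genes named in the authors' list; the diagonal marks equal differences, and interferon-inducible genes, B cell markers, Cd274 and Cd86 are coloured. Cd274 lies among the interferon-inducible genes at -2.91 and -2.63, and Cd86 at the upper end of the falling genes at -1.17 and -1.11. The 2 axes come from 1 fit, and the gap around 0 is that of the list's selection. Gbp6 (-4.02 and -3.28) is plotted with the other named genes, not with the interferon-inducible ones.

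In the comparison of subsets under blockade, 11 of the 289 named genes passed higher in CD8 cells and 3 lower. Of all features, 1.08% were higher and 1.12% lower. Cd274 did not pass, while 3 of the 21 interferon-inducible genes did, all higher in CD8 cells. They were Ifit3, an antiviral effector (1.59 ± 0.10, limma adjusted p = 6e-05), and the guanylate-binding proteins Gbp2 (0.80 ± 0.10, limma adjusted p = 0.0028) and Gbp3 (0.60 ± 0.10, limma adjusted p = 0.02). Gbp6, left out of the 21, also passed, higher in CD8 cells by 0.66 ± 0.10 (limma adjusted p = 0.0088, with limits given further on). The call of Gbp2 was lost without both arrays with unusual spike-ins (limma adjusted p = 0.065), and that of Gbp3 was also lost there (0.096), without either CD4 blockade array (0.075 and 0.16) without CD8 blockade replicate 2 (0.093) and with only the compared groups (0.095). The median of the 21 was 0.11, against -0.08 for the 289 named genes and 0.23 for Cd274. Without treatment, 26 of the 289 named genes passed lower in CD8 cells and 6 higher, at a median of -0.16. Of all features, 1.42% were lower and 1.08% higher. Among the 21 interferon-inducible genes, 3 were lower and 1 was higher in CD8 cells, at a median of -0.17. Each of these 4 calls was lost without either CD4 untreated array.

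The genes most like Cd274 over the 8 arrays were ranked by the highest Pearson r among the 288 other named genes. Of the first 5, those given here are the immunity-related GTPase Irgm1 (r = 0.998), the TRIM family gene Trim12c (0.998) and the guanylate-binding proteins Gbp7 (0.997) and Gbp6 (0.997). Irgm1 differed by -3.11 in CD4 cells and -2.90 in CD8 cells, close to Cd274 in size. In Trim12c too all untreated arrays lay above all blockade arrays, with smaller differences, -1.10 and -1.0, and in Gbp6 with larger ones, -4.02 and -3.28. Gbp6 was higher in CD8 than in CD4 cells under blockade by 0.66 ± 0.10 (limma adjusted p = 0.0088), a call lost without CD4 blockade replicate 2 (0.088) or either CD8 blockade array (0.055 and 0.051). After quantile normalization the difference of Gbp6 was 0.305 (limma adjusted p = 0.37), and the call was also lost with only the compared groups (0.051) and without both arrays with unusual spike-ins (0.11).

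Cd86 had a different and less close set of similar genes. The 5 with the highest r were Oas3, an interferon-inducible oligoadenylate synthetase (0.970), Ccnb1 (cyclin B, 0.962), Hk2 (hexokinase, 0.962), Cenpw (a centromere protein, 0.958) and Aurkb (a mitotic kinase, 0.957). Their differences lay between -1.86 and -1.31 in CD4 cells and between -1.46 and -1.09 in CD8 cells. With any 1 array left out, 1 to 4 of these 5 stayed among the first 5, and for Cd274 2 to 5 stayed. For Cd86 only 1 stayed when CD4 untreated replicate 1 or 2, CD4 blockade replicate 2 or CD8 blockade replicate 2 was left out. Which genes make up the first 5 is therefore not fixed by these arrays.

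**Figure D4:**
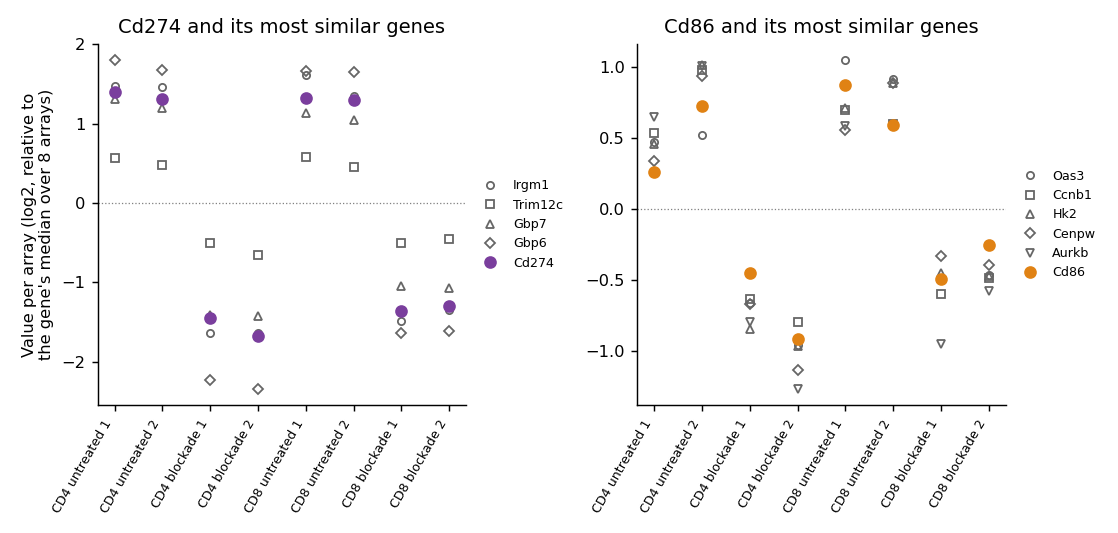
Values per array, in log2 relative to each gene's 8-array median, of Cd274 with 4 of its 5 most similar named genes (left) and of Cd86 with its 5 (right); the y axes differ. On every array Cd274 lies within the range of the 4 genes shown, which runs from Trim12c (smallest distance from 0) to Gbp6 (largest).

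The r between Cd274 and Cd86 was 0.938, place 130 of 288 for Cd274 and place 24 of 288 for Cd86. All of these values are descriptions, since the arrays fall into 4 blockade and 4 untreated ones and every named gene was selected for a difference between them. Accordingly 174 of the 288 genes had an r above 0.9 with Cd274 and 96 of 288 with Cd86.

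Cd86 is a known surface protein of B cells, macrophages and dendritic cells. The B cell markers that were named, and 3 named markers of macrophages and monocytes, had higher values under blockade, where Cd86 had lower ones. Of 19 B cell markers 16 were named, and all 16 passed upward under blockade in both subsets, by 1.11 to 2.34 in CD4 cells and by 0.88 to 2.19 in CD8 cells. Of all features, 1.39% passed upward in CD4 cells and 0.785% in CD8 cells, and of the 289 named genes 77 and 75 did. Cr2 (a complement receptor), Fcer2a (the low-affinity IgE receptor) and Fcmr (the IgM Fc receptor) rose most among these 16 by the mean of both subsets. The mean value of the 16 was -0.85 to -0.67 on the untreated arrays and 0.66 to 0.84 on the blockade arrays. All 7 named of 10 MHC class II genes passed upward too, by 1.10 to 1.70 in CD4 cells and by 1.21 to 1.64 in CD8 cells, with the chains H2-Ab1, H2-Aa and H2-Eb1 at the top. The lists overlap, since Cd74 is also counted among the 16 B cell markers and Ciita among the interferon-inducible genes. Of 16 macrophage and monocyte markers 3 were named: Apoe, Fabp4 and Cybb, at 1.30 to 2.43 in CD4 cells (3 passed) and 1.22 to 2.68 in CD8 cells (2 passed). None of 10 dendritic cell or 5 NK cell markers was named. As values are centred on each gene's median, it could not be said which of these markers were at background. In bulk samples, fewer cells of a type and less RNA per cell cannot be told apart, and the part of these cells in the values of Cd86 and Cd274 was not tested.

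Markers of granulocytes moved in the same direction as Cd274 and Cd86. Of 14 neutrophil markers 8 were named, and 7 passed downward in CD4 cells and 6 in CD8 cells, with medians of -2.62 and -2.92; S100a9, Ngp and S100a8 had the largest differences of the 8. Of 10 mast cell and basophil markers 5 were named, and 5 passed downward in CD4 cells and 4 in CD8 cells, with medians of -3.31 and -3.67; Cpa3, Mcpt8 and Fcer1a had the largest. These counts too stand against 198 and 172 of the 289 named genes that passed downward in CD4 and CD8 cells (95.2% and 85.5% in either direction). Of all features, 2.02% and 1.14% passed downward. The part of these cells in the values of the 2 ligands was not tested either.

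**Figure D5:**
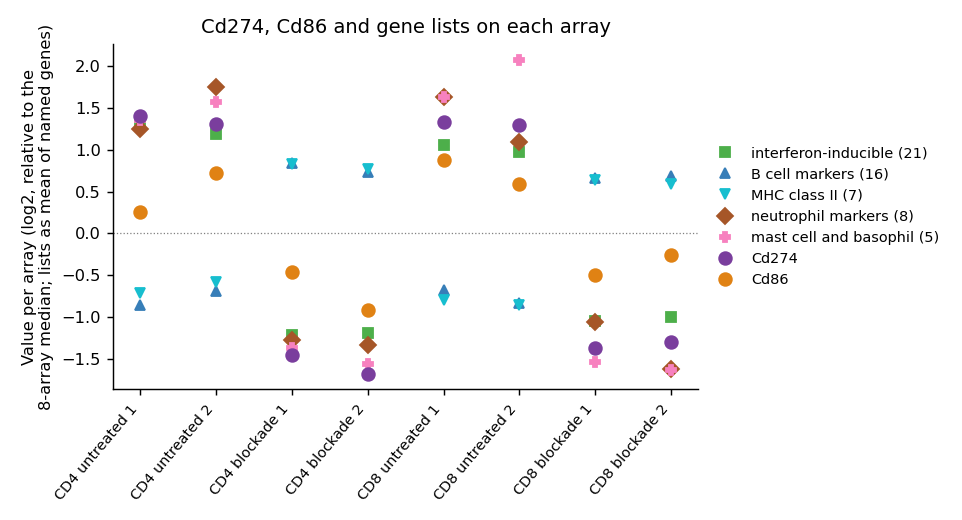
Values per array, in log2 relative to 8-array medians, of Cd274, Cd86 and the means of the named members of 5 gene lists (number of genes in brackets). The interferon-inducible, neutrophil, and mast cell and basophil means lie above 0 on the 4 untreated and below 0 on the 4 blockade arrays, as Cd274 and Cd86 do, and the B cell and MHC class II means lie the other way round. The interferon-inducible mean leaves out Gbp6.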

How the data were processed

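The deposited values were read as log2 values that the authors had normalized, per the file headers; no source used here names the summary method, the normalization method or the log base. Each row had a median of 0 over the 8 arrays, so the values hold differences between arrays but no signal level or detection. Of 45101 probe sets, 64 array controls were set aside. Gene names came only from the authors' deposited list of 409 probe sets, 375 of which had exactly 1 symbol. Symbols were updated through the Entrez identifier for 33 of them. A gene's listed probe sets were averaged, which left 44951 features; Cd274 and Cd86 had 1 probe set each.

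limma 3.58.1 (R 4.3.3) was fitted with a mean per group over 8 arrays, eBayes without an intensity trend, two-sided tests and Benjamini-Hochberg adjustment over all features, threshold 0.05, and was tested on simulated data. No p-value is given for Cd274 and Cd86 under blockade against no treatment, because the list was taken to be selected on that difference; its header leaves the conditions compared blank. The genes and lists were chosen with earlier results of these data known. The genes named are these 2, the 5 genes most like each by Pearson r, and the named members of the pathway lists, with up to 3 members of a marker list. One gene that this rule names is not reported here; counts over lists include it. Any further gene is said to be chosen after its values were seen. Arrays with the same replicate number did not deviate together (r between -0.03 and 0.078 for the 6 pairs of groups), so no block was used. The alternatives were leaving out arrays, a replicate block, only the compared groups, quantile normalization, centring of arrays, array weights, robust eBayes, single probe sets, a filter on small ranges and no variance moderation. The number of arrays limits the precision.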

Additional observations from a re-analysis of the deposited data

Results flagged for a closer look

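Of the genes in the lists used here, 1 stood apart because its blockade effect differed between the subsets in a test of the difference itself; 4 of the 289 named genes (1.4%) and 26 of all features (0.0578%) passed that test. The blockade difference of Gbp3, a guanylate-binding protein of the interferon-inducible list, was -3.18 ± 0.10 in CD4 cells and -1.95 ± 0.10 in CD8 cells, smaller in CD8 cells by 1.23 ± 0.14 (log2, limma adjusted p = 0.041, n = 2 arrays in each group, with both untreated arrays above both blockade arrays in each subset). The call was lost without any 1 of the 8 arrays, with the replicate block (adjusted p = 0.075), without variance moderation (0.44), after quantile normalization (0.32) and with the 2 arrays of unusual spike-ins left out (0.48), while the difference kept its direction in all 16 alternatives run for it (0.75 to 1.32, adjusted p 0.016 to 0.48). Neither Cd274 (0.28) nor Cd86 (0.07) passed this test. No group had enough arrays to look for a single outlying one.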

How the results depend on the processing

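In 18 alternatives, none of 106 values of Cd274 and Cd86 in the 3 tested comparisons passed the threshold, and all 72 blockade differences stayed below 0. The sign of the blockade differences was to be foreseen, since the list was taken to be selected on them. Many alternatives, such as robust eBayes or leaving out an array of the other subset, cannot move such a difference at all. The count of 72 is therefore no evidence of robustness. The replicate block left the differences as they were, since each group holds both numbers, and changed no call of the 2 genes, but it ended the call of Gbp3 for the difference between subsets (adjusted p = 0.075) and 3 of the 4 interferon-inducible subset calls without treatment; with the replicate block 1019 and 909 features passed for the subsets without treatment and under blockade, 22 for the difference between subsets, and 1389 and 803 for the blockade in CD4 and CD8 cells. Quantile normalization of these row-centred values moved Cd274 under blockade to -2.357 in CD4 and -2.446 in CD8 cells and turned its subset difference without treatment to 0.22 and its difference between blockade effects to -0.089; for Cd86 the latter became -0.032, or -0.046 without both arrays with unusual spike-ins, an alternative chosen after seeing the data; the cause was not tested. Leaving out 1 array gave -3.025 to -2.803 for Cd274 in CD4 cells and -0.164 to 0.302 for the difference between blockade effects of Cd86, turned in 4 of 8 cases. Leaving out 1 array gave 551 to 1070 features (1123 with all) for the subsets without treatment, 505 to 884 (990) under blockade, 5 to 26 (26) for the difference between subsets, and 666 to 1413 (1529) and 411 to 773 (867) for the blockade in CD4 and CD8 cells. In the same order, without both arrays with unusual spike-ins 460, 392, 0, 531 and 275 passed, and without variance moderation 0, 7, 1, 3 and 1, which ended each subset call given for a named gene. With only the compared groups 628 passed for the subsets under blockade and 453 for the blockade in CD8 cells. For the difference between subsets 16 passed after quantile normalization and 64 without the features of smallest range, where fewer features were tested. None of the 1258 other values of named genes under blockade changed sign. This too was to be foreseen from the selection of the list and from alternatives that cannot move these differences, and is no evidence of robustness. Signal over background could not be judged from centred values.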

Other observations

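Next to Cd274 in the annotation, 2 further genes were in the authors' list; they were chosen after their values were seen. Of the 8 protein-coding genes on each side of Cd274 on chromosome 19 in the RefSeq table, 2 of 16 were named in the list, Plgrkt (a plasminogen receptor), directly beside Cd274, and Insl6 (an insulin-like gene), 3 places away on the same side. Among all 21900 protein-coding genes of the table, 278 were named (1.27%), and of the 16 neighbours of Cd86 on chromosome 16 none was. Plgrkt differed by -1.25 ± 0.13 in CD4 cells and by -1.29 ± 0.13 in CD8 cells, with untreated arrays at 0.45 to 0.77 and blockade arrays at -0.88 to -0.45. Insl6 differed by -1.35 ± 0.09 and -1.06 ± 0.09, with untreated arrays at 0.52 to 0.58 and blockade arrays at -0.82 to -0.52. Their r with Cd274 over the 8 arrays was 0.975 and 0.996. Over the 288 other named genes the median r with Cd274 was 0.93, and 174 of them had an r above 0.9. High values thus go with the selection of the list, and a shared regulation of these neighbours was not tested. Jak2, the kinase of the interferon-gamma receptor, and Pdcd1lg2, which encodes the second PD-1 ligand, are also among the 16 neighbours of Cd274 and were not named in the list.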
